A study of Mus musculus with 3 samples.

Results

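The 10 genes described here encode adhesion molecules of the axon surface and of the node of Ranvier: Cntn1, Cntn2, Cntnap1, Cntnap2, Cntnap4, Nfasc, Nrcam, Ncam1, Chl1 and L1cam. They were taken by symbol, with earlier results of these data known. All 10 were found among the 32531 gene symbols of the deposited count tables. Translating ribosome affinity purification (TRAP) recovers RNA on ribosomes that carry a tagged subunit, and here it was followed by RNA sequencing for the deep nuclei of the cerebellum, through which the cerebellum sends its output. The adult mice were of the transgenic line Htr6-TRAP NIDA113 on the strain C57BL/6J, whose transgene, named for the serotonin receptor gene Htr6, makes an EGFP-tagged Rpl10a, and tagged polysomes were captured with antibodies to EGFP. All 3 libraries are such purified samples of 1 group, so genes are compared within a library and the spread over 3 libraries is the error. Whether each library is a separate animal or a pool is not stated in the labels, and part of that spread may be technical.

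At the node of Ranvier, the gap between myelin segments, sodium channels are held to the spectrin skeleton by ankyrin, and adhesion molecules of the L1 family bind that ankyrin from the membrane. At the paranode beside it, where myelin loops attach, the axonal pair of contactin-1 and contactin-associated protein 1 (Caspr) meets the glial form of neurofascin. Further out, at the juxtaparanode, contactin-2 and contactin-associated protein 2 (Caspr2) hold potassium channels of the Kv1 class. NCAM, L1 and CHL1 are spread along axons and are known for axon growth and bundling. The axons of deep nuclear neurons leave the cerebellum as long myelinated tracts.

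The 4 genes of the L1 family share the stretch that codes for the ankyrin-binding motif, known by its residues as FIGQY, and it is shown because it ties these genes to the ankyrin genes measured below. Each line gives 45 bases of coding sequence, 5′ to 3′, from GENCODE M21 transcripts, with the 5 codons of the motif in capitals.
Nfasc: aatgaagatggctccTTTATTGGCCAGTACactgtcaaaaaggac
Nrcam: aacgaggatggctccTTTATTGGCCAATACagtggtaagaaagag
L1cam: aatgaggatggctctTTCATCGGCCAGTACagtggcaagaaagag
Chl1: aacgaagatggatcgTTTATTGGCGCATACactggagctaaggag
The Chl1 stretch codes for FIGAY, a change written Q4A against Nfasc, with positions counted from 1 at the first residue of the motif. In mm10 the capitals lie at chr1:132570507-132570521 on the minus strand (Nfasc), chr12:44598486-44598500 on the plus strand (Nrcam), chrX:73855122-73855136 on the minus strand (L1cam) and chr6:103729249-103729263 on the plus strand (Chl1). Each is in the last exon of the transcript shown. Of the annotated coding transcripts, 5 of 6 for Nfasc, 4 of 7 for Nrcam, 4 of 6 for L1cam and 3 of 5 for Chl1 hold the motif. Among 21877 coding genes searched, FIGQY occurs in 7 (0.032%) and FIGAY in 4 (0.0183%). Counts per gene do not separate transcripts, so the neuronal and the glial form of neurofascin are summed in the values of Nfasc.

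The libraries held 7622010 to 8842058 reads assigned to genes. Levels are given as CPM, which is counts scaled to a common library size by the TMM method, and, to compare genes with each other, as RPKM, which is CPM per kilobase of exon. All 10 genes were measured in every library with at least 387 counts. Their mean levels lay at 61.1 CPM or above, and 8 of 10 reached 100 CPM, against 2067 of 11168 genes tested (18.5%) that had at least 10 counts in 2 or more libraries. The median of the 10 genes was 8.06 on the log2(CPM + 1) scale, against 4.41 for all genes tested. Per exon length the medians were 4.77 and 2.48 on the log2(RPKM + 1) scale. Unpurified tissue was not analysed here, so these are abundances in the purified RNA and not enrichments. In bulk RNA, fewer cells of a type and less RNA per cell cannot be told apart.

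**Figure D1:**
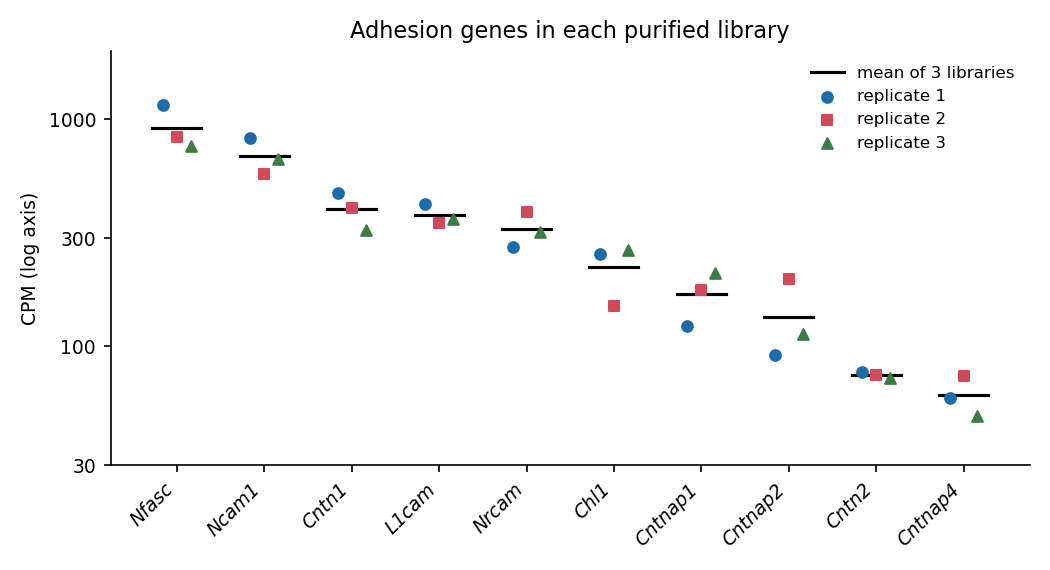
CPM (log axis) of the 10 adhesion genes in each of the 3 purified libraries, with points for libraries and lines for their means. Nfasc and Ncam1 lie highest, with means of 915 and 689 CPM, and Cntn2 and Cntnap4 lowest, with means of 75.0 and 61.1 CPM.

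The L1 family was led by Nfasc and L1cam. Nfasc, which encodes neurofascin and in its neuronal form anchors at the node and the axon initial segment, had 8678, 7325 and 5953 counts in replicates 1, 2 and 3. These are 1149, 831 and 764 CPM, with replicate 1 the highest, and the mean per exon length was 64.7 ± 14.5 RPKM (SD, n = 3). L1cam, an axon growth molecule whose loss in humans causes hydrocephalus, had 3202, 3084 and 2828 counts (424, 350 and 363 CPM) and 51.6 ± 5.4 RPKM. Its CV over libraries, 10.4%, was the lowest of the family. Nrcam, which is also found at nodes, had 2072, 3456 and 2496 counts (274, 392 and 320 CPM) and 24.6 ± 4.4 RPKM, with replicate 2 the highest. Chl1, the close homolog of L1, had 1928, 1333 and 2081 counts (255, 151 and 267 CPM) and 18.3 ± 5.2 RPKM, with replicate 2 apart on the low side. Of the summed RPKM of the family, Nfasc took 40.3 ± 4.5%, L1cam 32.4 ± 0.6%, Nrcam 15.8 ± 4.2% and Chl1 11.5 ± 3.1% (SD, n = 3). The share of L1cam lay between 32.0% and 33.1% in the 3 libraries, while that of Nrcam ranged from 11.4% to 19.8%.

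Within the L1 family, with all exons as the length, 3 of the 4 differences that were computed exceeded their SD. Among them was Nfasc minus L1cam, given below with the order of levels. Nfasc had 64.7 RPKM on average and Nrcam 24.6 RPKM, and the difference within a library was 1.93, 0.98 and 1.14 on the log2(RPKM + 1) scale in replicates 1, 2 and 3, or 1.35 ± 0.51 (2.55-fold), and 0.82 ± 0.52 with the longest coding transcript. Chl1 lay below L1cam in all 3 libraries, by a log2 difference of -1.48 ± 0.36, or -0.79 on the log2(CPM + 1) scale. With all exons, Nrcam minus Chl1 was -0.02, 1.19 and 0.14, with a mean of 0.44 ± 0.66 that is smaller than its SD and rests on replicate 2. With the longest coding transcript the mean was 0.83 ± 0.67, above its SD, and on the log2(CPM + 1) scale 0.58 ± 0.69. In both settings the difference was of 1 sign in all libraries. In total 16 differences between genes were computed, each tested by flipping the signs of its 3 library values (exact permutation, two-sided). That test cannot give a p below 0.25 (0.333 after Benjamini-Hochberg adjustment over the 16), and each of the 12 differences of 1 sign in all libraries had that p, so sizes are judged against the SD.

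Among the 6 contactin genes, which encode molecules tied to the outer membrane by a lipid anchor, Cntn1 was the most abundant. The paranodal Cntn1 had 3572, 3596 and 2528 counts (473, 408 and 324 CPM) and 42.6 ± 7.9 RPKM (SD, n = 3), with replicate 3 the lowest. The juxtaparanodal Cntn2 had 586, 660 and 564 counts (77.6, 74.9 and 72.4 CPM) and 8.06 ± 0.28 RPKM, and its CV of 3.47% was the smallest of the 10 genes. Cntn1 took 69.7 ± 7.4% of the summed contactin RPKM and Cntn2 13.3 ± 0.9%. Cntn1 exceeded Cntn2 by 2.25 ± 0.22 on the log2(RPKM + 1) scale, with ratios of RPKM of 6.01, 5.37 and 4.42 in replicates 1, 2 and 3.

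The contactin genes outside the 10 were lower and varied more between libraries. Cntn4 had 370, 179 and 489 counts and 5.19 ± 2.55 RPKM (SD, n = 3). Cntn3 had 80, 46 and 290 counts, and Cntn6 had 103, 226 and 36. Replicate 3 was thus the highest library for Cntn3 and the lowest for Cntn6. Cntn5 had no count in replicates 1 and 2, where a count of 0 allows up to 0.397 and 0.340 CPM (3 counts, counting error only), and 15 counts in replicate 3.

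Cntnap1 was the highest of the 7 contactin-associated genes. Cntnap1, the partner of contactin-1 at the paranode, had 933, 1564 and 1637 counts (124, 178 and 210 CPM) and 29.0 ± 7.4 RPKM (SD, n = 3), with replicate 1 the lowest. Cntnap2, the juxtaparanodal partner of contactin-2, had 694, 1746 and 883 counts (91.9, 198 and 113 CPM) and 13.1 ± 5.5 RPKM. Replicate 2 stood apart on the high side, and its CV of 41.8% was the largest of the 10 genes. Cntnap4, known in mice from synapses of inhibitory interneurons, had 449, 653 and 387 counts (59.4, 74.1 and 49.7 CPM) and 9.72 ± 1.96 RPKM. Cntnap1 took 46.8 ± 7.9%, Cntnap2 20.95 ± 6.4% and Cntnap4 15.9 ± 3.2% of the summed RPKM of the family. The remainder came mostly from Cntnap5b, with 311, 245 and 236 counts (10.7 ± 3.9% of the sum), and Cntnap5a, with 385, 118 and 262 counts. Cntnap3 had 0, 0 and 19 counts and Cntnap5c 0, 8 and 6.

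Cntnap1 exceeded Cntnap2 by 1.12 ± 0.50 on the log2(RPKM + 1) scale, in 3 of 3 libraries. Without length, on the log2(CPM + 1) scale, that difference was 0.38 ± 0.52 and no longer of 1 sign, since replicate 2 had 178 CPM of Cntnap1 and 198 CPM of Cntnap2. Cntnap2 minus Cntnap4 was -0.07, 0.67 and 0.44, a mean of 0.34 ± 0.38 that does not exceed its SD. It was 1.07 ± 0.40 without length and 0.06 ± 0.38 with the longest coding transcript. Cntn1 minus Cntnap1, the partners of the paranodal axon, was 1.21, 0.50 and -0.06, or 0.55 ± 0.64, and the ratio of their RPKM was 2.38, 1.43 and 0.962. With the longest coding transcript that difference was 1.17 ± 0.64 and of 1 sign. Cntn2 minus Cntnap2, the partners of the juxtaparanode, was -0.09, -1.17 and -0.46, or -0.57 ± 0.55, with Cntn2 lower in 3 of 3 libraries. It was -0.29 ± 0.55, within its SD and of mixed sign, with the length of the longest coding transcript, and -0.28 without replicate 2. Nfasc exceeded Cntn1 by 0.58 ± 0.13, the smallest SD among the 16 differences, in 3 of 3 libraries.

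Ncam1 was the highest of the 10 genes per exon length. It encodes the neural cell adhesion molecule, which binds between cells and signals through FGF receptors, and had 6260, 5036 and 5202 counts in replicates 1, 2 and 3. These are 829, 572 and 668 CPM and 79.6 ± 15 RPKM (SD, n = 3), which is rank 281 of 23848 gene symbols with an exon length. Its paralog Ncam2, known from olfactory axons, had 1047, 1072 and 1479 counts and 13.2 ± 3.1 RPKM. Ncam1 exceeded Ncam2 by 2.51 ± 0.37 on the log2(RPKM + 1) scale in 3 of 3 libraries and took 85.6 ± 3.3% of their sum.

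**Figure D2:**
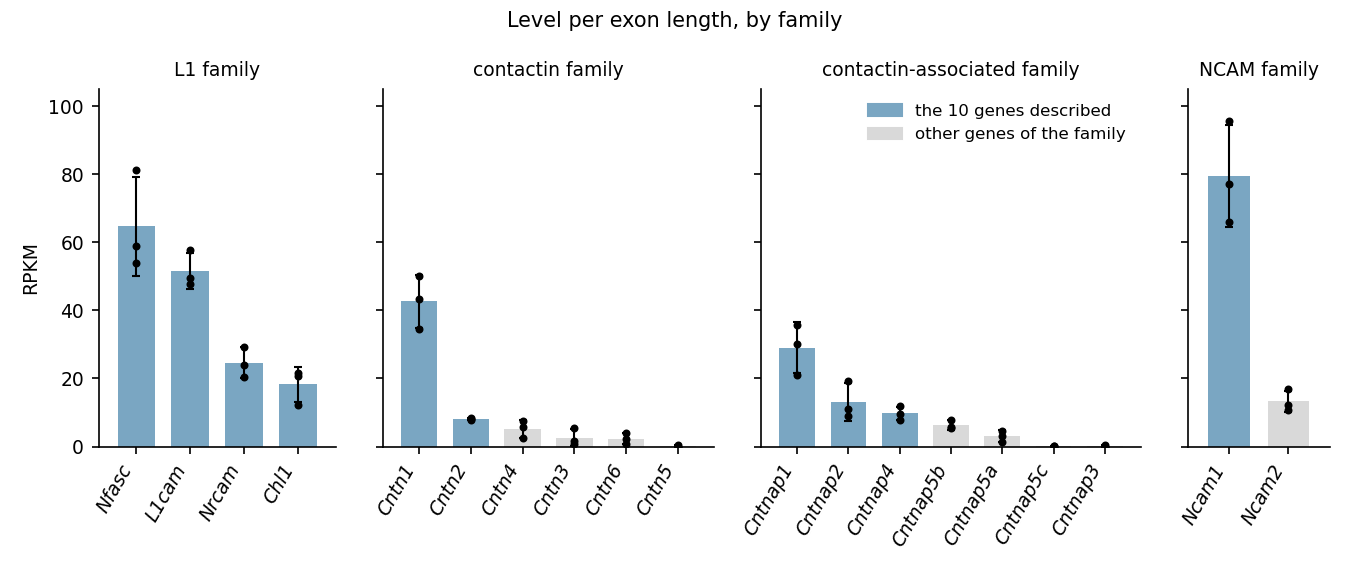
RPKM of all 19 genes of the 4 families, with bars for means, error bars for SD and points for the 3 libraries, and the 10 genes described in blue. Ncam1, Nfasc, L1cam and Cntn1 have means of 42.6 RPKM or above, while no gene in grey exceeds the mean of 13.2 RPKM of Ncam2.

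Ordered by mean log2(RPKM + 1), the 10 genes ran Ncam1, Nfasc, L1cam, Cntn1, Cntnap1, Nrcam, Chl1, Cntnap2, Cntnap4 and Cntn2. With all exons as the length, the first 4 kept their order in every library. Ncam1 exceeded Nfasc by 0.30 ± 0.18, Nfasc exceeded L1cam by 0.30 ± 0.18 and L1cam exceeded Cntn1 by 0.28 ± 0.20 log2 units (SD, n = 3). The order of these 4 depends on the length used. With the longest coding transcript Ncam1 minus Nfasc was 0.17 ± 0.18 and L1cam minus Cntn1 0.07 ± 0.20, and on the log2(CPM + 1) scale they were -0.40 and -0.07. From Cntn1 downwards, none of the 6 steps between neighbours exceeded its SD with all exons as the length. There, Chl1 minus Cntnap2 was 1.13, -0.61 and 0.91, and Cntnap4 minus Cntn2 averaged 0.23 ± 0.25. This too depends on the length used. With the longest coding transcript, Cntn1 minus Cntnap1 was 1.17 ± 0.64, Nrcam minus Chl1 0.83 ± 0.67 and Chl1 minus Cntnap2 1.09 ± 0.96, each above its SD. Cntnap1 minus Nrcam, 0.21 ± 0.30 with all exons, was -0.74 ± 0.30 with the longest coding transcript. Cntnap2 minus Cntnap4 (0.06 ± 0.38) and Cntnap4 minus Cntn2 (0.23 ± 0.25) stayed within their SD with that length.

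**Figure D3:**
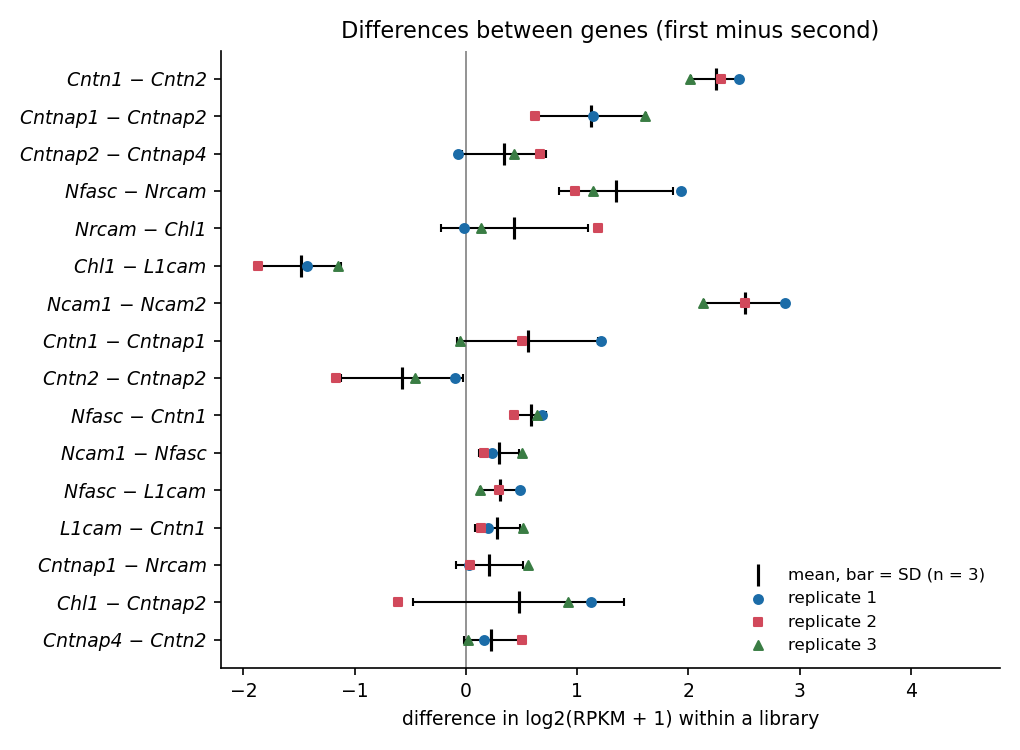
The 16 differences in log2(RPKM + 1), first gene minus second, in each of the 3 libraries, with mean and SD. Cntn1 minus Cntn2 (2.25) and Ncam1 minus Ncam2 (2.51) are the largest. Cntnap2 minus Cntnap4, Nrcam minus Chl1, Cntn1 minus Cntnap1 and Chl1 minus Cntnap2 have libraries on either side of 0.

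The 10 genes differ widely in how they lie in the genome (mm10, GENCODE M21). Cntnap2 spans 2244.9 kb of chromosome 6 (positions 45059357 to 47304213, plus strand), 219 times its 10248 exonic bases. Cntnap1 spans 20.2 kb of chromosome 11 (positions 101170523 to 101190724, plus strand), and Cntn2 33.8 kb of chromosome 1 (positions 132509427 to 132543256, minus strand). Nfasc (positions 132564690 to 132741797, minus strand) lies 21.4 kb from Cntn2 on the same strand. These neighbours had 64.7 RPKM for Nfasc and 8.06 RPKM for Cntn2. Chl1 lies on chromosome 6 (positions 103510586 to 103750211, plus strand) between Cntn3 and Cntn6, at 937.5 kb and 742.6 kb. L1cam is on chromosome X (positions 73853778 to 73896105, minus strand). Cntn1 (chromosome 15, positions 92051165 to 92341967), Nrcam (chromosome 12, positions 44328885 to 44601964) and Cntnap4 (chromosome 8, positions 112570043 to 112882717) are on the plus strand. Ncam1 (chromosome 9, positions 49502136 to 49798925) is on the minus strand.

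Exons of 4 of the 10 genes overlap another annotated gene. Cntnap4 shares 503 bases (8.01% of its exons) with the antisense gene Gm45904, Ncam1 417 bases (4.81%) with the antisense gene Gm11149, and Cntnap1 233 bases (3.97%) with Plekhh3 on the other strand. L1cam shares 100 bases (1.36%) with Arhgap4 on its own strand. Whether the counting used strand is not given here, and reads of such stretches cannot be told apart by gene.

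The median of the 10 adhesion genes, 4.77 on the log2(RPKM + 1) scale, stood beside 5.22 for their axonal partners, the anchors and channels inside the membrane. The 20 such genes were chosen by role, with earlier results of these data known. Of them, 14 had at least 100 CPM and 19 at least 10 CPM. Among the 11168 genes tested, 2067 and 8093 did. The ankyrin genes had the highest mean CPM of the list, Ank2 at 3093 ± 286 CPM (88.4 RPKM) and Ank3, whose product ankyrin-G builds the node, at 2410 ± 330.5 CPM (69.2 RPKM; SD, n = 3). The nodal sodium channel gene Scn8a had 20911, 14206 and 12318 counts and 126 ± 42.9 RPKM, with replicate 1 the highest, as for Nfasc. Per exon length Scn8a lay above Ank3 in each library, at 175.6, 102.3 and 100.3 RPKM against 60.97, 66.97 and 79.56 RPKM. In contrast, Sptbn4, which encodes the spectrin of the node, had 183, 170 and 171 counts, or 2.28 ± 0.26 RPKM. Kcnq3, which encodes a potassium channel subunit of the node, was the lowest of the list, with 28, 137 and 28 counts.

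Levels of the juxtaparanodal adhesion genes can be set beside those of the Kv1 channel genes of that domain. Cntnap2 was at 13.1 ± 5.5 RPKM and Cntn2 at 8.06 ± 0.28 RPKM (SD, n = 3), against 179 ± 11.3 RPKM for Kcna1, 138 ± 10.4 RPKM for Kcna2 and 14.4 ± 5.1 RPKM for Kcnab2, the gene of a channel beta subunit. No difference was computed between these genes. Epb41l3, listed under its older symbol Epb4.1l3, encodes the band 4.1 protein that ties contactin-associated proteins to the skeleton. It had 5008, 3699 and 3345 counts and 42.3 ± 11.6 RPKM.

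A second list, also chosen with earlier results known, held 17 glial, matrix and receptor partners, proteases and polysialyltransferases. It was not sorted by the cell that makes them. Its median was 2.82 on the log2(RPKM + 1) scale. Of these 17 genes, 5 had at least 100 CPM and 13 at least 10 CPM, against 2067 and 8093 of 11168 genes tested. Ptprz1, a receptor phosphatase that binds contactin-1, led at 973 ± 292 CPM (SD, n = 3), followed by the matrix genes Ncan (132 ± 53.5 CPM), Vcan (121 ± 68.5 CPM) and Tnr (107 ± 2.8 CPM). Bace1, the protease that cuts CHL1, had 348, 377 and 144 counts. The enzymes that add polysialic acid to NCAM were low, with 156, 208 and 39 counts for St8sia4 and 0, 99 and 68 for St8sia2. Gldn, the ligand of neurofascin made by Schwann cells of peripheral nerve, had 2, 0 and 0 counts.

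**Figure D4:**
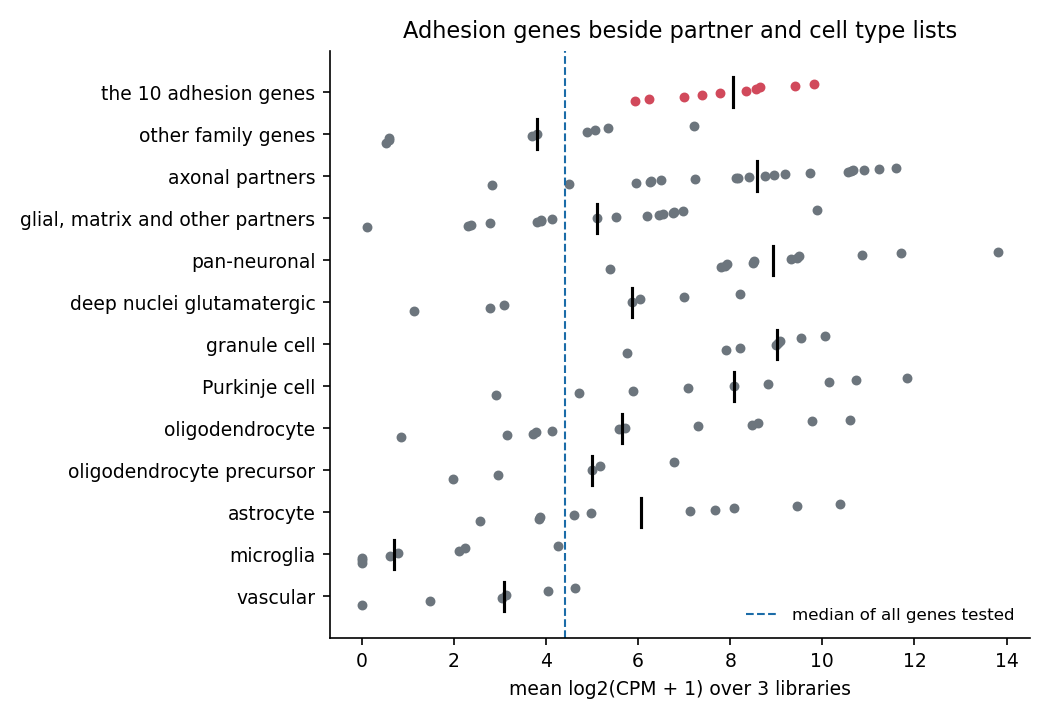
Mean log2(CPM + 1) over 3 libraries of each gene, with the 10 adhesion genes in the top row, partner lists and cell type marker lists below, a black line at each list's median and a dashed line at the median of all genes tested. The 10 adhesion genes (median 8.06) all lie right of the dashed line (4.41), beside axonal partners (8.57) and pan-neuronal genes (8.92).

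Markers of several cell types were present beside these genes. Of all genes tested, 8093 of 11168 had at least 10 CPM, and the counts of markers at that level have to be read against that share. All 12 pan-neuronal markers had at least 10 CPM, with a median of 8.92 on the log2(CPM + 1) scale, as had all 8 granule cell markers (9.01) and 8 of 9 Purkinje cell markers (8.07). Those of glutamatergic deep nuclear neurons had a median of 5.87, with 5 of 7 at 10 CPM or more. Htr6 itself had 0, 7 and 0 counts. Some of the 10 genes are also made by glia, such as Nfasc and Cntn2 by oligodendrocytes, and 10 of 12 oligodendrocyte markers reached 10 CPM (median 5.66). Their summed level was 3394, 4006 and 3148 CPM in replicates 1, 2 and 3, with Mbp, Mobp and Cnp among the highest, while Opalin was at 0 counts in replicate 2. Replicate 2, where that sum was highest, had 831 CPM of Nfasc and 74.9 CPM of Cntn2, which lie between the values of the other libraries. Astrocyte markers summed to 2627, 2630 and 3007 CPM (9 of 10 at 10 CPM or more), and precursor markers to 192, 142 and 292 CPM (3 of 5). Of 8 microglial markers 1 reached 10 CPM, with C1qa, Aif1 and Trem2 at 0 counts, and of 6 vascular markers 2 did, with Cldn5 at 0. The part of these cell types in the levels of the 10 genes was not tested.

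Most of the 10 genes varied between libraries beyond counting error. In a Poisson chi-square test of the counts, 9 of 10 passed an adjusted p of 0.05 (Benjamini-Hochberg over all genes tested), a share that has to be read against the 96.5% of 11168 genes that passed. Cntn2 was the exception, with counts of 586, 660 and 564 and a chi-square per degree of freedom of 0.694, so that no spread beyond counting error was detectable at this depth. Against genes of like level, none of the 10 varied more at an adjusted p under 0.05 by edgeR's quasi-likelihood dispersion, nor did any of all genes tested (0%). At an unadjusted p under 0.05 that test gave 477 of 11168 genes and 0 of the 10. A like test of variance in limma gave 521 genes and 0 of the 10 at that level, and 0 genes after adjustment. What the quasi-likelihood test can detect at the spread seen here was not checked. The largest ratio of a gene's dispersion to that of genes of its level was 1.29 for Nfasc and the smallest 0.00522 for Cntn2. The median CV of the 10 genes was 19.5%, against 56.3% for all genes tested, whose median level was lower.

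The 10 genes were highest in different libraries. Replicate 1 held the highest CPM for 5 of them (Cntn1, Cntn2, Nfasc, Ncam1 and L1cam), replicate 2 for 3 (Cntnap2, Cntnap4 and Nrcam) and replicate 3 for 2 (Cntnap1 and Chl1). Of all genes tested, replicates 1, 2 and 3 held the highest value for 35.2%, 32.6% and 32.2%. Cntnap2 deviated by -0.47, 0.63 and -0.17 from its mean on the log2(CPM + 1) scale, and Chl1 by 0.23, -0.52 and 0.29. The highest library exceeded the lowest 2.16 times for Cntnap2, 1.77 times for Chl1 and 1.70 times for Cntnap1, and 1.07 times for Cntn2.

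**Figure D5:**
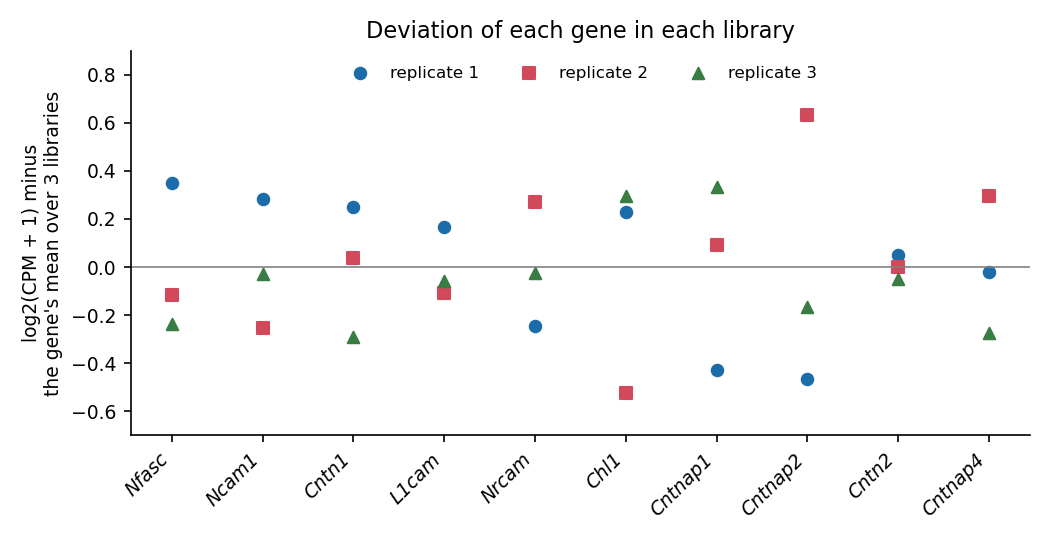
Deviation of each adhesion gene in each library from its own mean, on the log2(CPM + 1) scale. The points of Cntn2 lie within 0.05 of 0, while Cntnap2 in replicate 2 lies at 0.63 and Chl1 in replicate 2 at -0.52.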

How the data were processed

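RNA from tagged ribosomes of 3 libraries was analysed. The authors deposited whole-number read counts for each gene in 1 table per library. STAR 2.0.0e, HTSeq and mm10 are named in the submitters' processing notes. Annotation, strand setting and library kit: not given in the sources used here. Rows without a gene were left out. In replicates 1, 2 and 3, 50.2%, 44.1% and 44.7% of counted reads had no feature and 1.77%, 1.94% and 1.88% were ambiguous. CPM used TMM library sizes (edgeR 4.0.16, R 4.3.3). RPKM divided CPM by the union of exons of GENCODE M21 (mm10), matched by symbol or RefSeq synonym for 23848 symbols. A pseudocount of 1 was added before taking logs, so folds of low genes are understated. Genes entered the tests if 2 or more libraries had 10 counts. The tests were a chi-square test against Poisson error and edgeR's glmQLFit (intercept only, F test of each dispersion over its trend), both with Benjamini-Hochberg adjustment. The tests were checked on simulated data. For edgeR's test these had a dispersion of 0.1. The square root of the dispersion estimated from the 3 libraries was 0.832, so the simulated counts were less noisy. That check therefore does not show what edgeR's test can detect here. Permutation tests used scipy 1.17.1. All 10 genes are named, with every other gene of their families. Of each partner list the 4 highest and the lowest gene are named, with genes whose role is stated beside a member. Some genes that this rule names are left out of the text, though they count in their lists. The members and lists were chosen with earlier results of these data known. Alternatives were DESeq2 1.42.0 size factors, totals without TMM, a pseudocount of 0.1, other lengths, other count filters, limma 3.58.1 and leaving out each library.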

Additional observations from a re-analysis of the deposited data

How the results depend on the processing

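The means of the 10 paired differences kept their sign under all alternatives tried, but not always their size. These were DESeq2 size factors, totals without TMM, a pseudocount of 0.1, the longest coding transcript, CPM without length, and each library left out. Library size nearly cancels in a difference within a library, so the first 2 could hardly change it and are no check of it. Without length, Cntnap1 minus Cntnap2 was 0.38 ± 0.52 and of mixed sign, Chl1 minus L1cam -0.79 and Nfasc minus Cntn1 1.18. With the longest coding transcript, Cntn2 minus Cntnap2 was -0.29 ± 0.55 and of mixed sign, and Nfasc minus Nrcam 0.82. Cntnap2 minus Cntnap4 fell from 0.34 to 0.06 ± 0.38 with that length. Other differences grew and were then of 1 sign in all libraries. With the longest coding transcript, Cntn1 minus Cntnap1 rose from 0.55 to 1.17 ± 0.64 and Nrcam minus Chl1 from 0.44 to 0.83 ± 0.67. Without length, Cntn1 minus Cntnap1 was 1.25 ± 0.65 and Cntnap2 minus Cntnap4 1.07 ± 0.40. Steps between neighbours turned round in 5 cases. Without length (CPM), Ncam1 minus Nfasc was -0.40, L1cam minus Cntn1 -0.07, Cntnap1 minus Nrcam -0.96 and Cntnap4 minus Cntn2 -0.31; with the longest coding transcript, Cntnap1 minus Nrcam was -0.74. Both alternatives differ from the main values only in the length used. The count of genes more variable than others of their level, 0, was 20 when every gene with at least 1 count entered and between 2 and 5 with each library left out (3 without replicate 1, 5 without replicate 2, 2 without replicate 3); the cause was not tested, and none of the 10 genes was among them. No comparison between conditions was possible because the labels give only 1 group. Depth limits the values of family members with few counts, such as Cntn5, Cntnap3 and Cntnap5c.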
